A study of Mus musculus with 6 samples.

Results

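The genes described here are the metalloproteinases of the MMP, ADAM and ADAMTS families and their inhibitors, the TIMPs, in MOC2 cells with and without p62. They were taken from the deposited gene tables by a rule on the symbol alone. The families were chosen with earlier results of these data known. Of the 25526 genes listed, 80 belonged to these families, namely 23 MMP, 34 ADAM, 19 ADAMTS and 4 TIMP genes. MOC2 is a mouse oral squamous cell carcinoma line. Poly(A) RNA-seq was made from 3 parental cultures, which carry wild-type p62, and from 3 cultures in which p62 had been knocked out with CRISPR-Cas9. Both groups grew in DMEM with fetal bovine serum and received no further treatment. Clonal origin of the knockout cells is not given in the labels, nor is it stated that replicates were grown separately, so the p-values cover only the spread among these libraries, which may be technical.

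Matrix metalloproteinases (MMPs) are zinc enzymes that cut collagens, proteoglycans and other matrix proteins. Most are secreted as inactive proenzymes, and the membrane types stay on the cell surface. ADAM proteins are membrane-anchored relatives, several of which release the outer part of growth factors, receptors and adhesion molecules from the cell, while ADAMTS enzymes are secreted and act on proteoglycans and procollagens. TIMPs block the active site of these enzymes. In squamous carcinoma the families are known for their part in invasion and in the release of EGF receptor ligands.

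Libraries held between 32821860 and 41763980 exon reads, and a count of 0 allows up to 3 reads, or between 0.0718 and 0.0914 CPM (reads relative to the library total). Sqstm1, which encodes p62, stood at 1432, 1659 and 1792 TPM (a level per transcript length, scaled to the same total in every library) in the parental libraries and at 103, 496 and 105 TPM in knockout replicates 1 to 3. Knockout replicate 2 thus kept more of the transcript than the other two. It also stood apart over all genes, differing from the other knockout libraries by 313 and 316 in chi-square per degree of freedom, against 7.65 between those and 40.6 to 98.5 among parental libraries. Of 9 genes listed as epithelial markers, not all particular to squamous epithelium, 6 reached 1 TPM in some library. These were Krt8, Krt18, Epcam, Cdh1, Sfn and Krt14. Krt14 lay between 12.6 and 54.3 TPM. Krt6a, and Krt5 and Trp63, which mark basal squamous cells, stayed under 1 TPM. Krt8 was called higher in knockout cells. The summed level of 9 fibroblast markers lay between 6.76 and 9.82 TPM in parental and between 1.76 and 2.34 TPM in knockout libraries, and 6 of the 9, including Dcn, Fap and Thy1, were under 1 TPM throughout, with Lum at 0. Pdgfra and Col3a1 of that list were called lower. Of 10 leukocyte markers 8 were under 1 TPM in every library, including Ptprc, and Cd3e and Tyrobp were at 0. The list summed to between 40.1 and 43.7 TPM in parental and between 7.13 and 9.49 TPM in knockout libraries, most of it Cd68 in each library, which was called lower. All 6 endothelial markers were under 1 TPM. The part of these marker changes in the results that follow was not tested.

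Most family members were silent or nearly so in MOC2 cells. No read was found for 18 of the 80 genes in any library, and 33, counting those 18, had at most 3 reads in every library. A mean of at least 1 TPM in either group was reached by 27 genes and a mean of at least 5 TPM by 17. The filter on low counts left 37 members to be tested and removed 43, of which 3 had 10 or more reads in some library. The removed gene with the most reads was Adam4, at 35 reads in knockout replicate 2. Timp2 had the highest level in both groups, followed by Adam9 and Mmp14.

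**Figure D1:**
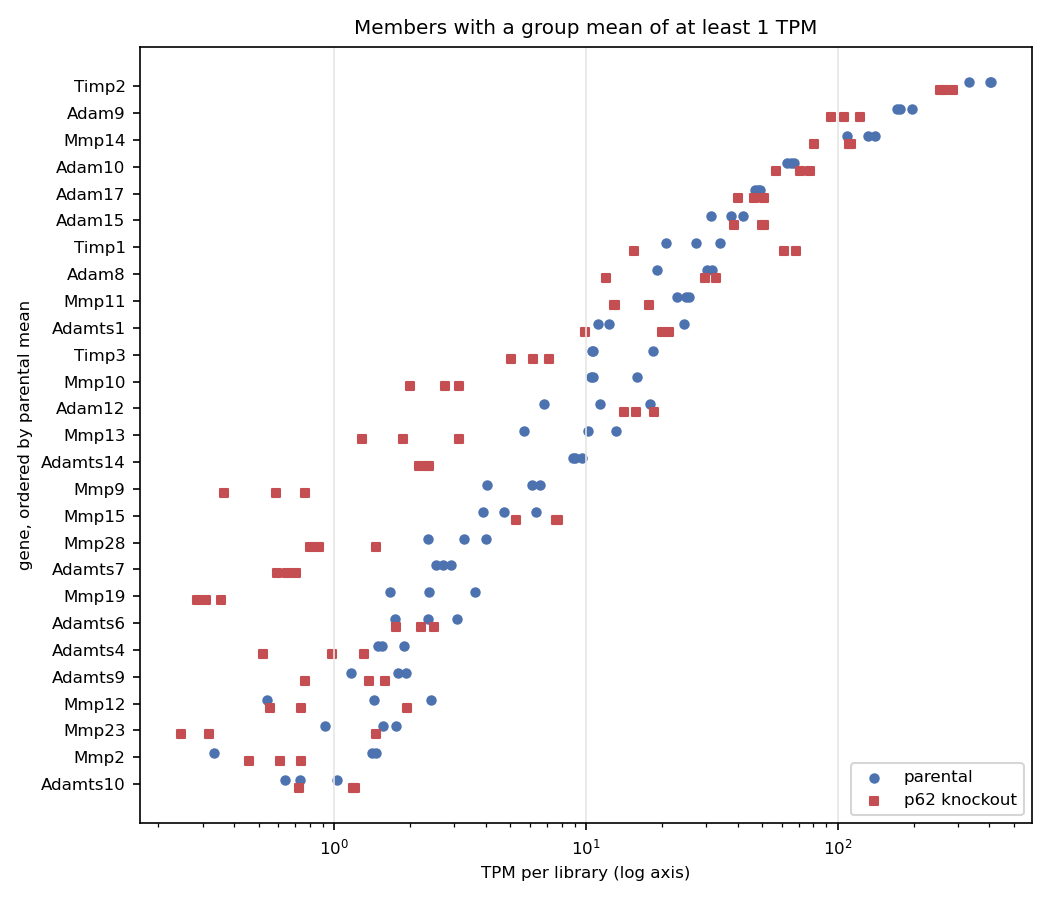
TPM in each library (log axis) for the 27 members with a mean of at least 1 TPM in either group, ordered by the parental mean, with parental libraries as circles and p62 knockout libraries as squares. Timp2, Adam9 and Mmp14 were the most abundant, and the knockout squares lie well apart from the parental circles for, among others, Mmp9, Mmp10, Mmp13, Mmp19, Mmp28, Adamts7 and Adamts14.

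The metalloproteinase transcripts that passed the test were all lower in the p62 knockout libraries. Of the 37 members tested, 8 were lower without p62 by edgeR's quasi-likelihood test (Benjamini-Hochberg adjusted p below 0.05, over all genes), which is 21.6%, against 5.60% of all 12775 genes tested. They were the MMP genes Mmp9, Mmp10, Mmp13, Mmp19 and Mmp28, the ADAMTS genes Adamts7 and Adamts14, and Adam9. No member was called higher by edgeR or limma-voom, against 3.48% of all genes by edgeR and 2.68% by limma-voom, and limma-voom called 8 lower, against 5.45%. At an unadjusted p below 0.05, 13 members were lower and 3 higher, against 15.8% and 16.6% of all genes. DESeq2 called 11 lower and 1 higher, against 11.0% and 11.6% of all genes. The median log2 fold change was -0.61 over the 37 tested members and 0.02 over all genes tested. In bulk RNA, fewer cells of a type and less RNA per cell cannot be told apart. The knockout libraries all lay below the parental ones for 16 of the 37, or 43.2%, against 22.3% of all genes tested, and all above for 1, Adam22, against 12.2%.

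The calls rested on single libraries more than the directions did. All 8 genes kept a negative sign in every one of the 14 alternative settings, except that Mmp19 and Mmp28 did not pass the stricter filter of 1 of them. Leaving out parental replicate 1, 2 or 3 gave 5, 0 and 5 lower members, against 2.15%, 0% and 0.774% of all genes. Leaving out knockout replicate 1, 2 or 3 gave 2, 13 and 1, against 0.292%, 23.2% and 0.223%. Such fits hold fewer libraries, and without parental replicate 2, where edgeR called no gene of the whole table, 12 of 38 members had an unadjusted p below 0.05, against 19.3% of all genes. Adamts14 lost its call only there (adjusted p = 0.0537). The fit without knockout replicate 2 called all 8 again. It added Adam19, Mmp11, Mmp23, Timp2 and Timp3 as lower and Adam15, Adam22, Mmp15 and Timp1 as higher, where 23.0% of all genes were higher and 46.2% were called in either direction. In that library 5 of the 8 genes were higher than in the other knockout libraries, 2 lay between them and 1, Mmp9, was lowest.

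**Figure D2:**
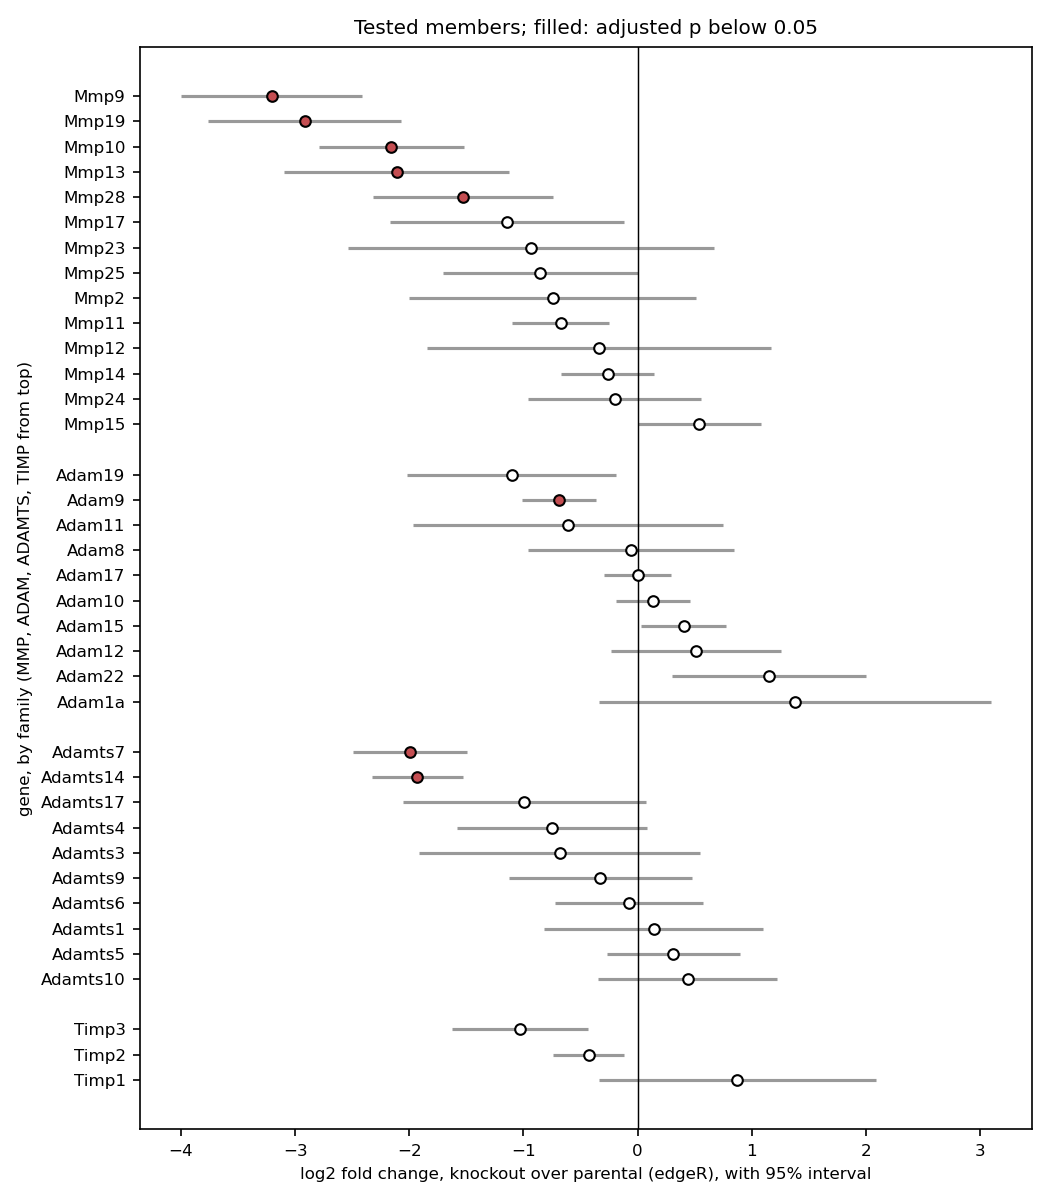
Log2 fold change of knockout over parental cells with its 95% interval for the 37 tested members, grouped by family, with filled points for an adjusted p below 0.05 (edgeR). All 8 filled points lie left of 0, between -3.21 for Mmp9 and -0.69 for Adam9.

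Of the 14 MMP genes tested, 5 fell (35.7%, against 5.60% of all genes), and all 5 encode secreted enzymes. The secreted Mmp2, Mmp11 and Mmp12 were not called, and a difference between secreted and membrane enzymes was not tested. The 5 tested membrane types held no call, but 4 of them had a negative sign, against 48.25% of all genes tested. In 2 of these, Mmp17 and Mmp25, all knockout libraries lay below the parental ones (edgeR adjusted p of 0.123 and 0.154). The largest fall was that of Mmp9 (ENSMUSG00000017737), the gelatinase that digests denatured collagen and basement membrane collagen. It stood at 6.54, 6.08 and 4.04 TPM in parental replicates 1 to 3 and at 0.768, 0.364 and 0.587 TPM in knockout replicates 1 to 3. The lowest parental library was 5.26 times the highest knockout library, the widest such gap among the 8 called genes. The log2 fold change was -3.21 ± 0.34 (SE), or 9.24-fold lower (edgeR adjusted p = 0.00806), and the call was lost without parental replicate 2 (adjusted p = 0.0610) or knockout replicate 3 (adjusted p = 0.0563). Mmp2, the other gelatinase, was at 1.41, 1.46 and 0.334 TPM in parental and 0.741, 0.606 and 0.458 TPM in knockout libraries. Parental replicate 3 lay below every knockout library, and Mmp2 was not called (log2 fold change -0.74, 95% interval -2.002 to 0.52).

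Mmp10 (ENSMUSG00000047562), a stromelysin that cuts proteoglycans and laminin, was at 10.7, 15.95 and 10.5 TPM in parental and 3.13, 2.74 and 2.01 TPM in knockout replicates 1 to 3. The groups were far apart, with a log2 fold change of -2.16 ± 0.27 (SE), or 4.46-fold lower (adjusted p = 0.0109). Mmp13 (ENSMUSG00000050578), the main collagenase of fibrillar collagen in mice, was at 13.1, 10.2 and 5.66 TPM against 1.88, 3.12 and 1.29 TPM. Both groups varied, parental replicate 3 being the lowest of its group and knockout replicate 2 the highest of its own, and the fall was 4.32-fold (log2 fold change -2.11 ± 0.42, SE; adjusted p = 0.0326). Mmp10 missed the threshold when parental replicate 2, or either of knockout replicates 1 and 3, was left out (adjusted p of 0.0807, 0.0646 and 0.0624). That of Mmp13 was lost without any library but knockout replicate 2, at an adjusted p of 0.0789, 0.158 and 0.0791 for parental replicates 1 to 3 and 0.137 and 0.125 for knockout replicates 1 and 3.

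Mmp19 (ENSMUSG00000025355), a secreted enzyme that cuts basement membrane proteins, was low in parental cells, at 2.39, 3.62 and 1.66 TPM, and nearly off in knockout cells, at 0.308, 0.355 and 0.286 TPM. The knockout values came from 14, 21 and 14 reads. The log2 fold change was -2.92 ± 0.36 (SE), or 7.55-fold lower (adjusted p = 0.0104). Only 82.0% of its reads were unique, and its exons share 789 bases with Tmem198b on the opposite strand, which stood between 9.55 and 12.7 TPM in parental and 4.59 and 8.79 TPM in knockout libraries. With unique reads alone Mmp19 was still called lower. Mmp28 (ENSMUSG00000020682), the epilysin of epidermis and other epithelia, was at 4.00, 3.28 and 2.35 TPM in parental and 0.866, 1.47 and 0.803 TPM in knockout libraries. Knockout replicate 2 was nearest to the parental range, and the fall was 2.88-fold (log2 fold change -1.53 ± 0.33, SE; adjusted p = 0.0396). Of its reads 92.4% were unique, and its exons share 466 bases with 1700020L24Rik on the opposite strand, which was at 4.57, 2.08 and 1.47 TPM in parental and 1.67, 1.00 and 0.671 TPM in knockout libraries. The part of these overlaps in the results was not tested. Mmp19 lost its call without parental replicate 2 or knockout replicates 1 and 3 (adjusted p of 0.0759, 0.0651 and 0.0635), and Mmp28 without any library but knockout replicate 2, at an adjusted p between 0.0959 and 0.175.

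**Figure D3:**
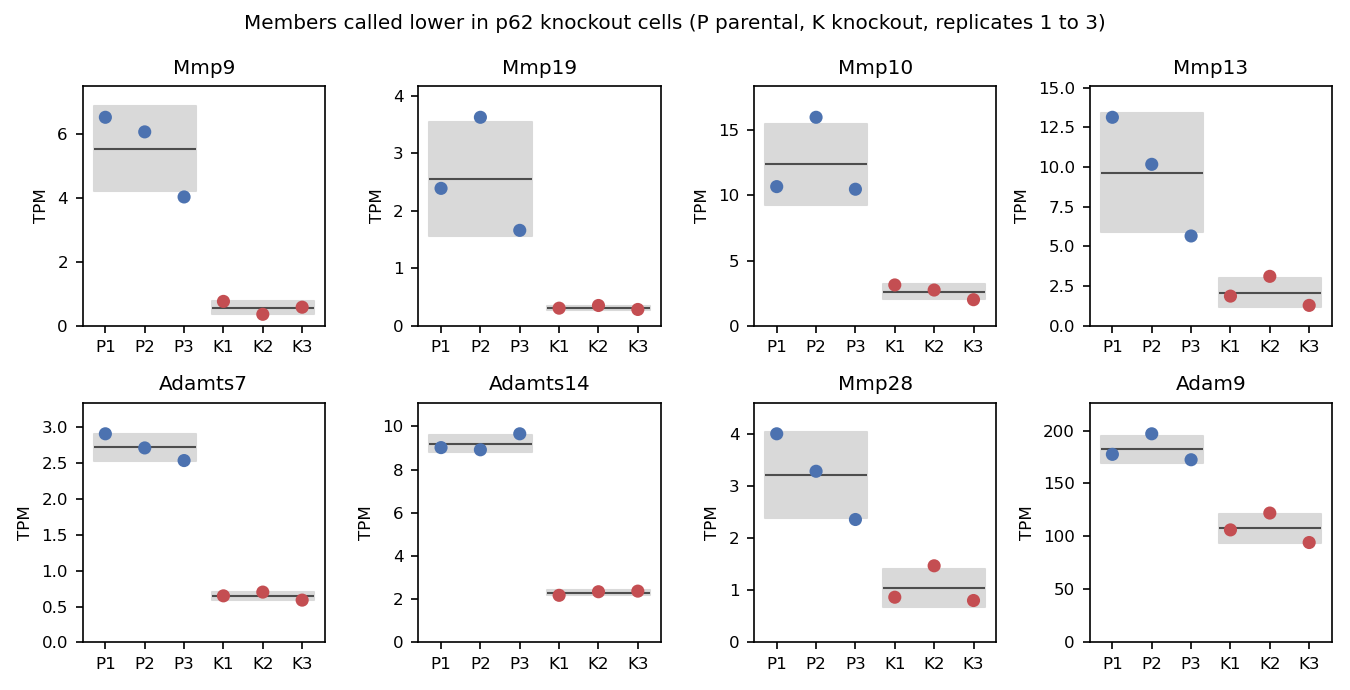
TPM in each library for the 8 members called lower, with parental libraries P1 to P3 in blue, knockout libraries K1 to K3 in red, a line at the group mean and a grey band of 1 SD to either side. In each panel all 3 knockout libraries lie below all 3 parental ones, by the least in Adam9, where the lowest parental library is 1.41 times the highest knockout library.

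The most abundant MMP was not called. Mmp14, the membrane-type enzyme that cuts collagen at the cell surface and activates the proenzyme of MMP2, was at 109, 141 and 132 TPM in parental and 113, 80.2 and 111 TPM in knockout replicates 1 to 3. The groups overlapped, with a log2 fold change of -0.26 (95% interval -0.67 to 0.15, edgeR adjusted p = 0.328). Mmp11, a stromelysin-type enzyme activated inside the cell by furin, stood at 24.9, 25.7 and 23.0 TPM against 12.9, 17.8 and 13.1 TPM. Its groups did not overlap, but at a log2 fold change of -0.67 ± 0.18 (SE) it missed the threshold (adjusted p = 0.0613). It was called lower by DESeq2 and without knockout replicate 2. Its exons share 155 bases with Chchd10 on the opposite strand, which was at 98.0 to 111 TPM in parental and 45.9 to 66.5 TPM in knockout libraries. Mmp15, another membrane-type enzyme, had the only positive sign among the 14, at 4.73, 6.30 and 3.91 TPM against 7.62, 5.29 and 7.71 TPM (adjusted p = 0.154). Mmp12, the macrophage elastase, varied within both groups, at 2.42, 1.44 and 0.538 TPM in parental and 0.557, 1.94 and 0.740 TPM in knockout libraries.

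Mmp10 and Mmp13 lie in a run of 10 neighbouring MMP genes on chromosome 9, in the order Mmp13, Mmp12, Mmp1b, Mmp3, Mmp1a, Mmp10, Mmp8, Mmp27, Mmp20 and Mmp7. Only 3 of the 10 passed the filter, the third being Mmp12, and 5 had at most 3 reads in every library. Mmp3, the stromelysin most like Mmp10, had between 3 and 19 reads per library. AP-1 is a dimer of FOS and JUN proteins long known to act on MMP promoters, and RefSeq promoters of 300 bases (250 before and 50 after the start site) were searched for its letters TGACTCA on both strands, the reverse complement being TGAGTCA. They were in 7 of the 10 genes of the run, namely Mmp13, Mmp12, Mmp1b, Mmp3, Mmp1a, Mmp10 and Mmp7, against 5.20% of all 32817 promoters of that length. Of the 40 other members with an entry, 3 held them. The TATA letters TATAAA, on either strand, were in 9 of the 10 genes of the run and in 13.6% of all promoters. These letters were thus also found at genes of the run with almost no reads. A match describes the sequence and is no evidence of binding.

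Of the 8 called genes, 4 had a promoter entry, and all 4 are shown. The build is GRCm38.p6, while the counts were made on GRCm39. Capitals mark the AP-1 and TATA letters, and lower case the rest, 5′ to 3′ on the strand of the gene.
Mmp10, chr9:7502092-7502391 (+ strand): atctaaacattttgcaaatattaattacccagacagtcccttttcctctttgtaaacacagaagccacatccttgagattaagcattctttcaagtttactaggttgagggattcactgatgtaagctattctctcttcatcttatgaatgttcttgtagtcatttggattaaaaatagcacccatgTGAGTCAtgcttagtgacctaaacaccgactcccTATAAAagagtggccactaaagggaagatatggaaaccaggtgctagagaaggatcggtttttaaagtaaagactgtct
Mmp13, chr9:7272264-7272563 (+ strand): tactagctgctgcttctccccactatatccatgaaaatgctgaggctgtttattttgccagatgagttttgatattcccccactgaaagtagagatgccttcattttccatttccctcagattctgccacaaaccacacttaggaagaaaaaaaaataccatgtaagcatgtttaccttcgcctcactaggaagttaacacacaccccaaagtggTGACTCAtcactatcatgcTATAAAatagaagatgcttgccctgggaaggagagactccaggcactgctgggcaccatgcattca
Mmp28, chr11:83462991-83463290 (- strand): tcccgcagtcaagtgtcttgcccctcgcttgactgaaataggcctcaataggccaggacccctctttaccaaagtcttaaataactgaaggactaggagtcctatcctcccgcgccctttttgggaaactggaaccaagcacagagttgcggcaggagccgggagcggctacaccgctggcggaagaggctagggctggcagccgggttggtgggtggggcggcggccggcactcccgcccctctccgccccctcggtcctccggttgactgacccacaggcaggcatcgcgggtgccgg
Adamts14, chr10:61273370-61273669 (- strand): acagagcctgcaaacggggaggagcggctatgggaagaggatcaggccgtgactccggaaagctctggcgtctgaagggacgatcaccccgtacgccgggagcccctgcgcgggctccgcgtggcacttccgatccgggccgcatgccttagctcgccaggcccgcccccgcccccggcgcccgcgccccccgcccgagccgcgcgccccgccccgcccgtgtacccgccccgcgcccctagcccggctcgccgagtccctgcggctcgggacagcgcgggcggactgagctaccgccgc

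In Mmp10 the AP-1 letters began 63 bases and the TATA letters 29 bases before the start site, and in Mmp13 they began 35 and 16 bases before it. These promoters held 37.7% and 43.7% G and C with 2 and 1 CpG. Those of Mmp28 and Adamts14 held 63.7% and 76.7% G and C, with 20 and 44 CpG and 3 and 7 GC boxes (GGGCGG, either strand), and neither set of capital letters was in the window. The 4 genes that fell therefore do not share these promoter features.

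Of the inhibitors, Timp2 and Timp3 were lower in every knockout library and Timp1 was split within the knockout group, and none was called by edgeR. Timp2, which binds MMP14 at the cell surface, held most of the TIMP transcript level, at 403, 408 and 334 TPM in parental and 264, 287 and 256 TPM in knockout replicates 1 to 3. The groups did not overlap, with a log2 fold change of -0.43 ± 0.13 (SE; adjusted p = 0.0798). Timp3, which is bound to the matrix and also inhibits ADAM17, was at 10.6, 18.4 and 10.6 TPM against 6.15, 7.13 and 5.03 TPM. Here too the groups were apart, with a log2 fold change of -1.03 ± 0.25 (SE; adjusted p = 0.0505). Both were called lower by DESeq2 and in the fit without knockout replicate 2, and Timp3 also with upper quartile scaling and with no filter. Timp1, a soluble inhibitor that binds the MMP9 proenzyme, was at 20.9, 27.4 and 34.0 TPM in parental cells. Knockout replicates 1 and 3 had 61.1 and 68.3 TPM, above every parental library, and knockout replicate 2 had 15.6 TPM, below every parental library. With all libraries its log2 fold change was 0.87 (95% interval -0.34 to 2.09, adjusted p = 0.275), and without knockout replicate 2 it was called 2.42-fold higher (adjusted p = 0.00775). Timp4 had 1 read in 1 parental library and none elsewhere. At an unadjusted p below 0.05 there were 2 of the 3 tested TIMPs, a level that 32.5% of all genes reached, and limma-voom called none.

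Of the 10 ADAM genes tested, 1 fell (10%, against 5.60% of all genes), and it was the most abundant. Adam9 (ENSMUSG00000031555), a membrane sheddase of growth factors and adhesion proteins, was at 178, 197 and 172 TPM in parental and 106, 122 and 94.3 TPM in knockout replicates 1 to 3. The groups did not overlap, and the fall was small beside those of the MMPs, at 1.61-fold (log2 fold change -0.69 ± 0.14, SE; edgeR adjusted p = 0.0326). Its share of the summed ADAM level was 48.7% ± 1.03 in parental and 34.7% ± 6.24 in knockout cells (SD, n = 3 each). The call was lost without any library but knockout replicate 2, at an adjusted p of 0.0743, 0.181 and 0.109 for parental replicates 1 to 3 and 0.160 and 0.148 for knockout replicates 1 and 3, while the log2 fold change stayed between -0.82 and -0.61.

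Neither of the best-known sheddases was called. Adam17, which releases TNF and EGF receptor ligands, was at 48.0, 49.2 and 46.9 TPM in parental and 51.0, 40.0 and 46.4 TPM in knockout libraries. The groups overlapped, and the 95% interval of its log2 fold change ran from -0.29 to 0.29 (adjusted p = 0.997). Adam10, which cuts Notch receptors and cadherins, was at 62.9, 67.2 and 65.3 TPM against 77.6, 56.7 and 70.6 TPM, with an interval of -0.19 to 0.46 (adjusted p = 0.522). In both genes knockout replicate 2 was below all parental libraries. The difference between Adam9 and either gene was not tested.

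Adam15, a sheddase with an integrin-binding motif, was at 42.0, 37.7 and 31.5 TPM in parental and 50.7, 38.7 and 50.2 TPM in knockout libraries (log2 fold change 0.40 ± 0.16, SE; adjusted p = 0.128), and it was called higher without knockout replicate 2. Adam8, known best from leukocytes, was at 19.1, 30.1 and 31.8 TPM against 32.9, 12.1 and 29.8 TPM, with knockout replicate 2 below and knockout replicate 1 just above the parental range. Adam12, which can release HB-EGF, was at 18.0, 11.4 and 6.82 TPM against 15.9, 18.6 and 14.1 TPM, with overlapping groups. Among the low genes, Adam19 was at 0.951, 1.13 and 0.771 TPM in parental and 0.405, 0.612 and 0.232 TPM in knockout libraries (adjusted p = 0.105). Adam22, a neuronal member without protease activity, moved the other way, at 0.206, 0.263 and 0.264 TPM against 0.568, 0.312 and 0.676 TPM (adjusted p = 0.0831). DESeq2 and the fit without knockout replicate 2 called Adam22 higher. Of the 22 ADAM genes outside the 12 widely studied somatic ones, many of them known from the testis, 12 had no read at all and 17 at most 3 reads in every library. The 1 that was tested, Adam1a, had only 56.2% unique reads and its level is uncertain. Adam9 closes a run of 5 ADAM genes in the order Adam18, Adam3, Adam5, Adam32 and Adam9, of which it alone was tested.

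Of the 10 ADAMTS genes tested, 2 fell (20%, against 5.60% of all genes), and both had closely spaced values in each group. Adamts14 (ENSMUSG00000059901), which removes the amino-terminal propeptide of fibrillar procollagens, was at 9.01, 8.91 and 9.65 TPM in parental and 2.18, 2.35 and 2.37 TPM in knockout replicates 1 to 3. Knockout replicate 2 was like the other knockout libraries, and the log2 fold change was -1.93 ± 0.17 (SE), or 3.81-fold lower (edgeR adjusted p = 0.00654). Adamts7 (ENSMUSG00000032363), which cuts the cartilage protein COMP, was at 2.91, 2.71 and 2.54 TPM against 0.649, 0.702 and 0.590 TPM. The log2 fold change was -1.99 ± 0.21 (SE), or 3.99-fold lower (adjusted p = 0.00806). Adamts14 lost its call without parental replicate 2 (adjusted p = 0.0537), and Adamts7 there and without knockout replicates 1 and 3 (adjusted p of 0.0683, 0.0646 and 0.0598). Adamts7 shares 122 exon bases with Tbc1d2b on the opposite strand, which was at 9.33 to 11.2 TPM in parental and 5.58 to 8.15 TPM in knockout libraries.

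Of the 4 tested ADAMTS genes listed as proteoglycan-cutting, none was called by edgeR. None had an unadjusted p below 0.05 either, a level that 32.5% of all genes reached. Adamts1, which cuts versican and aggrecan, had the highest level of the family, at 11.2, 12.3 and 24.5 TPM in parental and 21.3, 9.90 and 20.0 TPM in knockout libraries, and the groups overlapped (log2 fold change 0.14, 95% interval -0.82 to 1.10). The aggrecanase Adamts4 was at 1.89, 1.55 and 1.497 TPM against 1.31, 0.521 and 0.982 TPM, with no overlap but an adjusted p of 0.188. Its relative Adamts5 was at 0.563, 0.681 and 0.613 TPM against 0.873, 0.573 and 0.757 TPM (adjusted p = 0.403). Adamts9, also of that list, was at 1.16, 1.78 and 1.92 TPM against 1.59, 0.764 and 1.37 TPM (adjusted p = 0.532). Adamts6, from outside that list, was at 3.07, 1.74 and 2.36 TPM against 1.76, 2.48 and 2.21 TPM, with overlapping groups. Adamts3, the other tested procollagen propeptidase, was at 0.333 TPM or less in every library and was not called (adjusted p = 0.394), while Adamts2, the third, had at most 8 reads in a library and was not tested.

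Summed per library, MMP transcripts made up 183, 218 and 186 TPM in parental and 143, 117 and 139 TPM in knockout replicates 1 to 3, with no overlap. TIMP transcripts made up 434, 454 and 378 TPM against 331, 310 and 329 TPM, and ADAM transcripts 371, 395 and 356 TPM against 337, 292 and 308 TPM, also without overlap. ADAMTS transcripts overlapped, at 31.1, 31.3 and 44.7 TPM against 31.4, 18.5 and 29.9 TPM. These sums are set by the few abundant genes. Mmp14 held 64.9% ± 5.44 of the MMP level in parental and 75.7% ± 6.04 in knockout cells (SD, n = 3 each). Timp2 held 90.3% ± 2.29 and 83.4% ± 8.13 of the TIMP level, and Adam9 48.7% ± 1.03 and 34.7% ± 6.24 of the ADAM level (SD, n = 3 each). The mean of Adam9 went from 182 to 107.5 TPM, a larger fall than that of the ADAM sum, from 374 to 312 TPM. Summed TIMP level was 2.16 ± 0.19 times the summed MMP level in parental and 2.45 ± 0.18 times in knockout cells, and the groups overlapped. The sums were not tested.

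**Figure D4:**
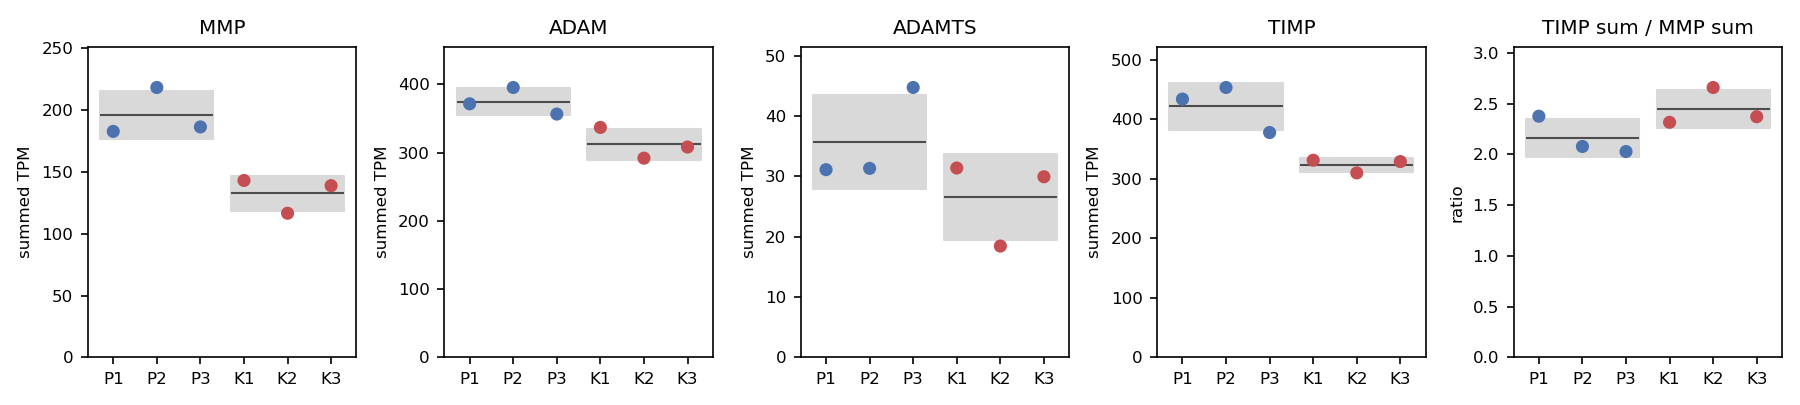
Summed TPM of the MMP, ADAM, ADAMTS and TIMP genes in each library, and the ratio of the TIMP to the MMP sum, with parental libraries P1 to P3 in blue, knockout libraries K1 to K3 in red, a line at the group mean and a grey band of 1 SD. The MMP sum lies between 183 and 218 TPM in parental and between 117 and 143 TPM in knockout libraries, and the ratio overlaps.

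Genes that act with these enzymes or are cut by them were described from 5 lists with 75 genes in the tables, of which 62 were tested. The lists, too, were chosen with earlier results of these data known. Of the 62, 9 were lower and 1 higher by edgeR, against 5.60% and 3.48% of all genes. Matrix proteins held 4 of the 9 among 14 tested (28.6%, against 5.60% of all genes). All 14 had a negative sign (median log2 fold change -1.03), against 48.25% of all genes tested. Fn1, fibronectin, was at 1406, 1337 and 1413 TPM in parental and 312, 629 and 310 TPM in knockout libraries, 3.15-fold lower (adjusted p = 0.0324). Hspg2, the basement membrane proteoglycan perlecan, fell 2.07-fold, from 14.1 ± 1.22 to 6.47 ± 0.36 TPM (SD, n = 3; adjusted p = 0.00969). Acan, aggrecan, fell from 20.6 ± 6.69 to 9.08 ± 0.32 TPM, and Col3a1, a fibrillar procollagen, from 2.95 ± 1.91 to 0.538 ± 0.14 TPM (adjusted p of 0.0335 and 0.0355). Col3a1 lost its call with limma-voom (adjusted p = 0.0564) and without parental replicate 2 or 3 or knockout replicate 1 or 3 (adjusted p up to 0.150). Fn1 and Acan lost theirs without any library but knockout replicate 2 (up to 0.155 and 0.151), and Hspg2 without parental replicate 2 or knockout replicate 1 or 3 (up to 0.0891). Without knockout replicate 2 the counts over the 5 lists were 23 lower and 9 higher, against 23.2% and 23.0% of all genes. They were 5, 0 and 1 lower without parental replicates 1 to 3, against 2.15%, 0% and 0.774%. No gene of the lists was called in either direction without knockout replicate 1 or 3, where 0.292% and 0.223% of all genes were lower.

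Among 25 tested surface proteins known to be shed, 4 were lower (16%, against 5.60% of all genes), with a median log2 fold change of -0.14 over the list. Of these, 3 are EGF receptor ligands. Hbegf was at 185, 186 and 165 TPM in parental and 103, 98.6 and 91.4 TPM in knockout replicates 1 to 3, and the closely spaced groups gave a fall of 1.74-fold (adjusted p = 0.0133). Areg fell from 99.4 ± 18.5 to 49.4 ± 10.4 TPM and Btc from 13.9 ± 0.78 to 6.81 ± 0.47 TPM (SD, n = 3 each). Tgfa, a ligand of the same receptor, was at 42.8, 43.7 and 32.7 TPM against 38.3, 35.1 and 34.4 TPM, with overlapping groups (adjusted p = 0.745). Cxcl16, a membrane-bound chemokine cut by ADAM10, fell 1.62-fold, from 343 ± 34.4 to 201 ± 11.3 TPM, though only 76.9% of its reads were unique. Areg and Btc lost their calls without any library but knockout replicate 2 (edgeR adjusted p up to 0.180 and 0.143), and Hbegf and Cxcl16 without any but parental replicate 1 and knockout replicate 2 (up to 0.115 and 0.163).

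Of 8 tested partners of ADAM10 and ADAM17, 1 was lower (12.5%, against 5.60% of all genes). It was Rhbdf2, or iRhom2, which carries ADAM17 to the cell surface, at 36.3, 40.4 and 42.9 TPM in parental and 18.2, 24.4 and 16.7 TPM in knockout libraries. No knockout library reached the parental range, and the fall was 1.92-fold (edgeR adjusted p = 0.0341), lost without any library but knockout replicate 2 (adjusted p up to 0.167). Its relative Rhbdf1 was not called. Of the 11 tested genes listed as activators and regulators of MMPs, 1 was called, against 9.08% of all genes called in either direction. It was the kallikrein Klk10, higher at 80.6, 16.7 and 73.7 TPM in knockout against 9.22, 5.59 and 5.30 TPM in parental libraries. Its call was lost with limma-voom and without any library but knockout replicate 2. An action of Klk10 on MMPs was not tested. Furin, which activates MMP14 and many ADAM proenzymes, was at 93.5, 93.9 and 87.4 TPM against 63.4, 89.9 and 60.1 TPM (adjusted p = 0.293). Reck, a membrane-anchored MMP inhibitor, stayed below 0.7 TPM in every library. Of the 4 tested ADAMTS-like genes, which lack a protease domain, Adamtsl5 had the smallest p (adjusted p = 0.168), and none passed an unadjusted p of 0.05.

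**Figure D5:**
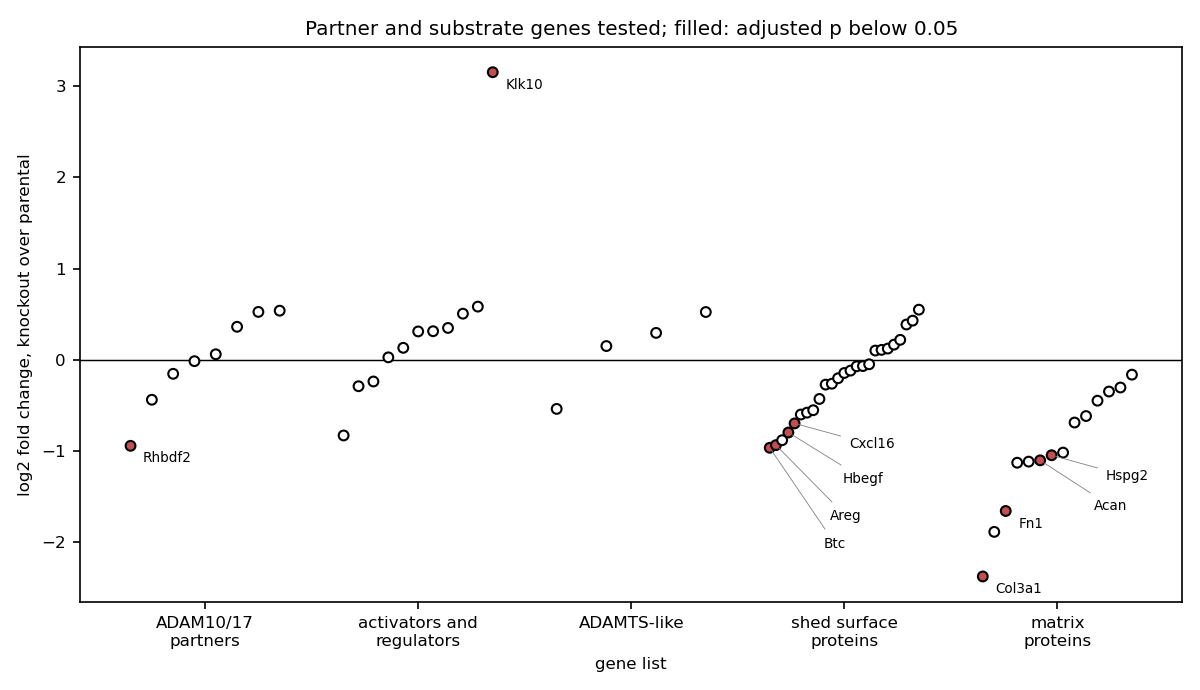
Log2 fold change of knockout over parental cells for the 62 tested partner and substrate genes in 5 lists, each point a gene, filled for an adjusted p below 0.05 (edgeR). The 14 matrix proteins all lie below 0, against 48.25% of all genes tested. The other lists spread to both sides, and Klk10 is the 1 filled point above 0.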

How the data were processed

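Per the labels' protocols, libraries were stranded, paired-end and made after poly(A) selection. The authors' counts are deposited, unnormalized total exon reads per gene, and the deposited TPM values are scaled for exon length and library total, per the file headers. The submitters' processing notes name the build GRCm39. No aligner, counter or annotation is named in those notes or labels, and whether counting used strand is not stated, so reads of genes that overlap on opposite strands cannot be told apart.

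Differences were tested with edgeR 4.0.16 under R 4.3.3 (quasi-likelihood, filterByExpr, TMM, group as the only term, 6 libraries), with Benjamini-Hochberg adjustment over 12775 genes and a threshold of 0.05. The standard error came from the F statistic and the 95% interval from it. The procedure was tested on simulated counts in which the spread was capped and no library stood apart. That test does not show how it performs with a library like knockout replicate 2. Levels are TPM, and fold changes are knockout over parental from the counts. Libraries of a group differed by 7.65 to 316 in chi-square per degree of freedom, above sampling noise, and all were kept. The 14 alternatives were DESeq2 1.42.0, limma-voom (limma 3.58.1), scaling by RLE or upper quartile, a stricter filter (5 CPM in 3 libraries) or none, unique exon reads only, the replicate block, and each library left out in turn. Named were all called members, those of at least 5 TPM in a group, Timp1 to Timp4, Mmp2, Mmp9, Mmp14, Adam10, Adam17, the most abundant of each subfamily, and of the partner lists each called gene or, with none, that of smallest p. Adam4, Adam19, Adam22, Adam1a, Adamts2 to Adamts5, Adamts9, Mmp1a, Mmp1b, Mmp3, Mmp12, Mmp17, Mmp23, Mmp25, Rhbdf1, Furin, Reck and Tgfa were named after their values were seen. The members and lists were chosen with earlier results of these data known. Of the 80 members, 50 matched a RefSeq promoter.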

Additional observations from a re-analysis of the deposited data

How the results depend on the processing

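No named gene changed sign with a call in any of the 14 alternative settings. Of 444 pairs of a named gene and a setting, 349 kept their side of the threshold, 84 lost a call and 11 gained one. With DESeq2, 1402 genes were lower and 1479 higher over the whole table, 1 member was higher, and 14 partner and substrate genes were lower and 3 higher, while limma-voom called 0 of these partner genes higher. Leaving out 1 library at a time gave 0 to 3001 genes lower and 0 to 2972 higher over all genes, 0 to 13 members lower and 0 to 4 higher, and 0 to 23 partner and substrate genes lower and 0 to 9 higher. The log2 ratio of the summed MMP level lay between -0.62 and -0.47 in these sets, and that of the ADAMTS sum between -0.56 and -0.22.

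The labels name no pairing by replicate number. Same-numbered libraries had correlations of deviations of -0.37, -0.10 and 0.28, and not every library correlated best with its own number. With 3 libraries per group and knockout replicate 2 standing apart, these values cannot decide whether same-numbered libraries were paired. With the replicate block, 203 genes were lower and 54 higher, 6 members were lower, Adam9 and Mmp28 losing their calls, and 1 partner or substrate gene was lower. The cause of these shifts was not tested. Untested members had at most 35 reads in a library, and tested members such as Adam1a and Mmp19 went down to 2 and 14 reads.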
